A study of Homo sapiens with 9 samples.

Results

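The genes described here are 9 brakes on growth signalling that have been linked to p53: an inhibitor of AKT (PHLDA3), 2 inducers of autophagy (DRAM1 and TP53INP1), the 3 sestrins (SESN1, SESN2 and SESN3), 2 genes of the TSC axis (DDIT4 and TSC2) and a regulatory subunit of AMPK (PRKAB1). They were chosen by name from the 78986 genes counted, with earlier results of these data known. In cells expressing G245S or R273H p53, 4 of the 9 had lower mRNA levels than in cells expressing WT p53 when both mutants were set against WT: PHLDA3 stood at 22.7% of its WT level, DRAM1 at 28.4%, TP53INP1 at 48.2% and SESN1 at 66.4%. Over all genes tested, 0.177% were lower in that comparison, and the count of 4 became 1 without WT replicate 1 and 2 without WT replicate 2, PHLDA3 being called in each case. SESN2, SESN3, DDIT4, TSC2 and PRKAB1 did not pass the test in any comparison. No member differed between the mutants past the threshold. DDIT4 did pass it in some alternative fits, which are given below.

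These genes sit on one signalling chain. AKT, a kinase switched on by growth factors at the plasma membrane, inactivates the TSC1-TSC2 complex, which otherwise holds the small GTPase RHEB and with it the kinase complex mTORC1 in check. AMPK, the energy sensor of the cell, and the sestrins, which relay stress and leucine shortage, also restrain mTORC1, and active mTORC1 represses autophagy, the lysosomal digestion of cell contents. p53 is a transcription factor that is known to induce several of these brakes under stress.

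RNA-seq was carried out on stable HEK293T lines, a human embryonic kidney line that carries the SV40 large T antigen, a viral protein that binds p53. The lines were transduced with lentivirus to express WT p53, the structural mutant G245S or the contact mutant R273H, with 3 biological replicates each, and all were kept in 1.5 µg/mL puromycin. Each line was a puromycin-selected pool, and all groups also carry the p53 of HEK293T itself. The 8 libraries used in the tests held 7325514 to 9667306 counts. WT replicate 3 held 1486315 counts and was left out of the tests on depth alone, and it also stood apart in epithelial markers, with EPCAM at 14.0 CPM (counts scaled to library size) against 0.736 to 3.40 CPM and KRT18 at 160.3 CPM against 58.5 to 68.5 CPM in the other libraries. Its values are given beside the results, and the part of these markers in them was not tested. The labelled cell type is epithelial. In the 8 libraries tested, the keratin gene KRT8 lay between 9.61 and 12.05 CPM and KRT18 between 58.5 and 68.5 CPM. CDH1, the main epithelial cadherin, lay there between 0.681 and 1.41 CPM, with 5 counts (3.5 CPM) in WT replicate 3. VIM, a mesenchymal filament gene, lay between 461 and 580 CPM. The neurofilament genes NEFM and NEFL lay at 125 to 192 CPM and 43.2 to 52.3 CPM, and INA at 7.57 to 11.6 CPM. In the same 8 libraries PAX2 lay between 2.18 and 4.85 CPM and PAX8 held 0 to 2 counts. The fibroblast gene COL1A1 lay between 12.6 and 36.8 CPM, while DCN, also a fibroblast gene, held 0 to 2 counts. The blood genes PTPRC, CD3E and CD14 and the endothelial gene PECAM1 held 0 to 7 counts. In bulk samples, fewer cells with a transcript and less of it per cell cannot be told apart.

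Promoter sequence (250 bases before to 50 bases after a gene's start, RefSeq, GRCh38.p14) was matched for 7 of the 9 members, all but PHLDA3 and TP53INP1. It was searched on both strands for the p53 half-site, for CACGTG (an E-box bound by TFEB and its relatives), TGATGNAA (ATF4), GTAAACA (FOXO factors) and ACGTG (the core of the hypoxia response element, which is contained in CACGTG). The SESN1 and DDIT4 promoters are shown because they were the only ones of the 7 with a match. The SESN1 window (chr6:109008939-109009238, minus strand), which lies within the annotated span of the gene, holds 1 p53 half-site beginning 49 bases before the start (capitals), and 6.63% of the 35116 promoters of the same length hold one. The DDIT4 window (chr10:72273674-72273973, plus strand) holds 1 ACGTG beginning 125 bases before the start (capitals), a motif found in 21.4% of promoters. CACGTG, TGATGNAA and GTAAACA occur in 7.26%, 3.62% and 3.42% of promoters and in none of the 7.
SESN1 promoter: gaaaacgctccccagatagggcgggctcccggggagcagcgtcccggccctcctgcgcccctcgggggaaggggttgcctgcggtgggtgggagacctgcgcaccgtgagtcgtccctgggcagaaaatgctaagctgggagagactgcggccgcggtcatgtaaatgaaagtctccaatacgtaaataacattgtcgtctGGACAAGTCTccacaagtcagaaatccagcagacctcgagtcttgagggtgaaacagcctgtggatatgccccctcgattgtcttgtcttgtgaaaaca
DDIT4 promoter: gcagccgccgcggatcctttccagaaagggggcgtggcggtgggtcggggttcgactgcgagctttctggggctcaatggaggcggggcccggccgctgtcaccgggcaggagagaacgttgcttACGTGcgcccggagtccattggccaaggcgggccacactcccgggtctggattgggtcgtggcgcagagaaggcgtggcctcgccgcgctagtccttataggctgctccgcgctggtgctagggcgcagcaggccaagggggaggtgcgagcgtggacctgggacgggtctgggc

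Full p53 sites, taken as 2 half-sites with no spacer, were then searched in the GRCh38 genome over the same 7 genes with 5000 bases on each side. The 4 central bases of each half-site had to match, so mismatches were counted in the other bases only. PHLDA3 and TP53INP1 were left out of this search as well, only because they had no promoter entry. The sites found are shown because the lines were made to express different forms of p53. Capitals mark the 4 central bases of each half-site, and each sequence is read on the strand of its gene. The DDIT4 site (chr10:72270764-72270783) has no mismatch and lies outside the transcript, at -3145 bases from the gene's start. Within 5000 bases of the 5′ end, 0.15% of 20033 protein-coding genes have a site without mismatch and 4.95% have one with at most 2 mismatches. The DRAM1 site (chr12:101880194-101880213, intronic, 2624 bases after the gene's start) and the SESN3 site (chr11:95174625-95174644, intronic, 57907 bases after the start) each have 2 mismatches. Over all protein-coding genes with their flanks, sites with at most 2 mismatches occur 0.512 times per 100 kb, and the stretch searched was 144551 bases for DRAM1 and 77029 bases for SESN3. SESN1, SESN2, TSC2 and PRKAB1 have no match of this kind. A match describes the letters alone.
DDIT4 site: aagCATGtctaggCAAGccc
DRAM1 site: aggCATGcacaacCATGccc
SESN3 site: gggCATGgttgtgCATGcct

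Each mutant was compared with WT to ask which brakes differ between lines that express different forms of p53. The samples hold no parental or empty-vector group, so a fall with a mutant and a rise with WT p53 cannot be told apart. The form of p53 and other differences between the transduced lines cannot be told apart either. In G245S, 3 of the 9 members fell (PHLDA3, DRAM1 and TP53INP1), where 0.107% of the 15893 genes tested fell. In R273H, 2 of the 9 fell (PHLDA3 and DRAM1), where 0.112% of 16022 fell. With both mutants set against WT in a single fit, 4 of the 9 fell, where 0.177% of 16398 fell, and none rose. At an unadjusted p under 0.05 in that fit, SESN2 and PRKAB1 joined these 4, making 6 of 9, where 6.9% of all genes lay under that level in either direction. The median log2 fold change of the 9 members was -0.26 in G245S, -0.43 in R273H and -0.23 over both mutants, and the median of all genes tested was 0.00343, 0.00234 and -0.00199 in turn. All 9 members passed the filter on low counts in every comparison.

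**Figure D1:**
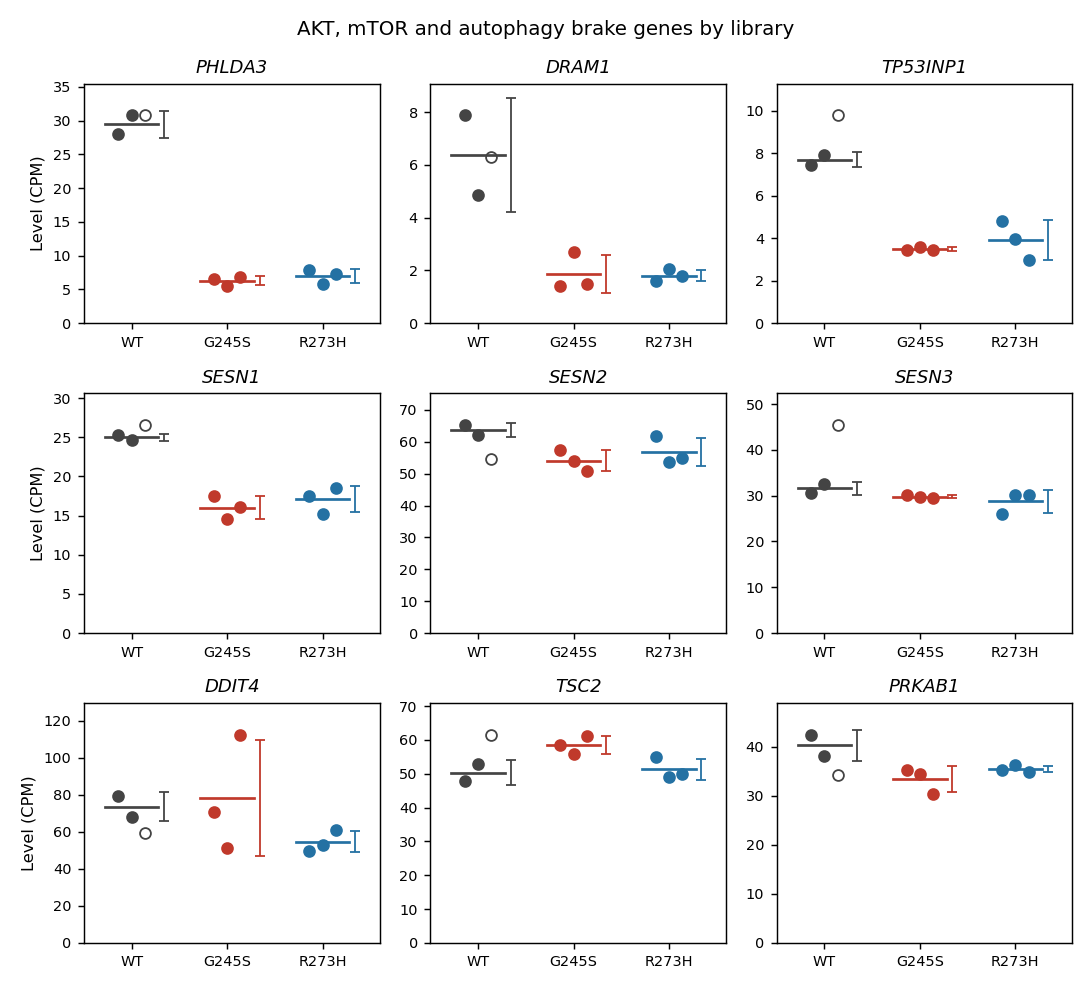
Level of each of the 9 genes (CPM, linear axes starting at 0) in every library, by the form of p53 expressed (WT, G245S or R273H). Filled points are the libraries tested, open points are WT replicate 3, horizontal lines are means and error bars are SD of the filled points (n = 2 for WT, n = 3 for each mutant). In the PHLDA3 panel all 6 mutant libraries lie between 5.52 and 7.80 CPM and all WT libraries at 28.04 CPM or above.

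PHLDA3 encodes a small pleckstrin homology domain protein that competes with AKT for membrane phosphoinositides and so keeps AKT from being activated. It lies on the minus strand (chr1:201464278-201469237, GRCh38). Its levels were 28.04 and 30.84 CPM in WT replicates 1 and 2, 6.50, 5.52 and 6.87 CPM in G245S and 7.80, 5.85 and 7.22 CPM in R273H. WT replicate 3 stood at 30.8 CPM. Every mutant library was therefore far under every WT library, and the mutant groups overlapped each other.

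The log2 fold change of PHLDA3 was -2.21 (SE 0.14, edgeR adjusted p = 3.14e-06) in G245S and -2.07 (SE 0.14, adjusted p = 4.05e-06) in R273H. It had the smallest p of all genes tested in both comparisons. Over both mutants the level was 22.7% of WT (95% interval 19.1 to 26.8%, edgeR adjusted p = 4.49e-08). With counts of 241 and 245 in WT and 43 to 68 in the mutants, the spread between replicates (coefficient of variation 6.73% in WT, 11.1% in G245S and 14.4% in R273H) was close to what counting alone gives (6.42%, 13.6% and 13.2%). PHLDA3 was called under every alternative run. An unnamed long noncoding RNA (ENSG00000224818) overlaps it on the same strand, so some reads could belong to either.

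DRAM1, a lysosomal membrane protein that promotes autophagy, lies on the plus strand (chr12:101877580-102012130). Its levels were 7.90 and 4.86 CPM in WT replicates 1 and 2, 1.42, 2.70 and 1.47 CPM in G245S and 1.61, 2.04 and 1.78 CPM in R273H. WT replicate 3 held 9 counts, or 6.3 CPM. The lowest WT library was above the highest mutant library, although the values rest on 38 and 69 counts in WT and 12 to 21 counts in each mutant library.

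DRAM1 fell in both mutants, with a log2 change of -1.80 in G245S (SE 0.31, edgeR adjusted p = 0.0382) and of -1.83 in R273H (SE 0.27, adjusted p = 0.0105). Over both mutants it stood at 28.4% of WT (95% interval 19.6 to 41.1%, edgeR adjusted p = 0.0022). The WT replicates differed more than counting gives (coefficient of variation 33.6% against 13.7%), and WT replicate 1 carried the call: without it the change on the log2 scale was -1.39 for G245S (adjusted p = 0.404), -1.43 in R273H (adjusted p = 0.17) and -1.41 over both (adjusted p = 0.2). The G245S call was lost under 8 of 15 alternatives. Among them were the fits without G245S replicate 1 (edgeR adjusted p = 0.138) or replicate 3 (adjusted p = 0.214). It was also lost with upper-quartile scaling (adjusted p = 0.0513) and with library-size scaling (adjusted p = 0.0585). The R273H call was lost under 2 of 15, 1 of them being WT replicates 2 and 3 (adjusted p = 0.16). With all 3 WT libraries in the fit, the adjusted p was 0.062 in G245S, 0.0161 in R273H and 0.00199 over both.

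TP53INP1, a stress-induced protein that binds autophagosomal proteins of the LC3 family, lies on the minus strand (chr8:94925972-94949378), where NDUFAF6 overlaps it on the opposite strand. The counting was strand-specific. Its levels were 7.44 and 7.93 CPM in WT, 3.45, 3.59 and 3.43 CPM in G245S and 4.82, 3.95 and 2.96 CPM in R273H, with 9.8 CPM in WT replicate 3. All mutant libraries lay under all WT libraries, with R273H more scattered than G245S.

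TP53INP1 fell in G245S to 45.8% of WT (95% interval 34.2 to 61.2%, edgeR adjusted p = 0.0399) and over both mutants to 48.2% (37.0 to 62.9%, adjusted p = 0.015). In R273H its level was 51.2% of WT (37.2 to 70.3%), which missed the threshold (edgeR adjusted p = 0.162). The difference between the mutants was not shown: R273H over G245S was 0.16 on the log2 scale (95% interval -0.32 to 0.63). The G245S call was lost under 11 of 15 alternatives, among them each of the 5 that left out 1 replicate (adjusted p between 0.0582 and 0.325), all 3 WT libraries (adjusted p = 0.061) and DESeq2 (adjusted p = 0.248), while the log2 fold change stayed between -1.26 and -1.09. Over both mutants the call was also lost without WT replicate 1 (adjusted p = 0.152) or without WT replicate 2 (adjusted p = 0.277).

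**Figure D2:**
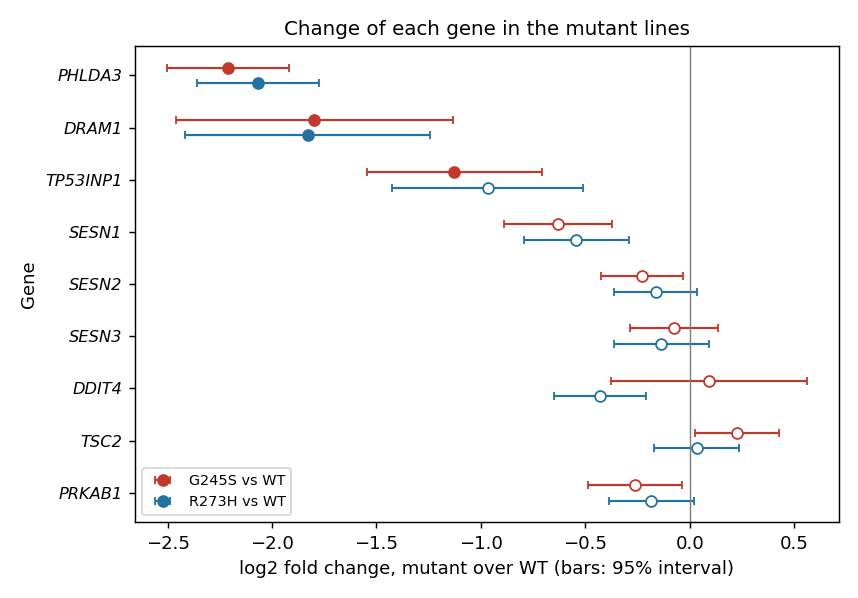
Log2 fold change of each gene in G245S (red) and R273H (blue) cells over WT, with 95% intervals from the edgeR fits; filled points passed an adjusted p of 0.05. PHLDA3 is at -2.21 and -2.07, and the intervals of SESN3 and TSC2 in R273H reach both sides of 0.

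The sestrins are a family of 3 stress-induced proteins, of which SESN1 alone was called. SESN1 and SESN2 bind the amino acid sensing complex GATOR2 and hold back mTORC1, SESN2 is also a leucine sensor, and SESN3 is best known as a target of FOXO factors. SESN1 (chr6:108984309-109094846, minus strand) stood at 25.3 and 24.7 CPM in WT, 17.5, 14.5 and 16.1 CPM in G245S and 17.6, 15.2 and 18.5 CPM in R273H, with 26.6 CPM in WT replicate 3. All mutant libraries were under all WT libraries, and the mutants overlapped.

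Over both mutants SESN1 fell to 66.4% of WT (95% interval 57.0 to 77.4%, edgeR adjusted p = 0.0204). Taken singly, G245S gave a log2 change of -0.63 (SE 0.12, adjusted p = 0.078) and R273H one of -0.54 (SE 0.12, adjusted p = 0.153), neither past the threshold. G245S did pass it under 3 of 15 alternatives. These were 1 fit of all 3 groups (edgeR adjusted p = 0.0384), the replicate block (0.0278) and no filter on low counts (0.00216). R273H passed it under 1 of 15, without that filter (edgeR adjusted p = 0.0159). The call over both mutants was lost under 7 of 17 alternatives, among them the fits without WT replicate 1 (adjusted p = 0.284), without WT replicate 2 (adjusted p = 0.266) and without G245S replicate 3 (adjusted p = 0.0537), and the log2 fold change stayed between -0.63 and -0.55.

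SESN2 (chr1:28259518-28282491, plus strand) was at 65.3 and 62.1 CPM in WT, 57.5, 53.9 and 50.9 CPM in G245S and 61.9, 53.6 and 54.9 CPM in R273H. The mutants lay under both WT libraries tested, by little, but WT replicate 3 was at 54.6 CPM, among the mutants. Over both mutants the level was 87.1% of WT (95% interval 77.3 to 98.1%, edgeR adjusted p = 0.627).

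SESN3 (chr11:95165513-95232541, minus strand) was at 30.6 and 32.6 CPM in WT, 30.3, 29.8 and 29.4 CPM in G245S and 25.9, 30.1 and 30.2 CPM in R273H. WT replicate 3, at 45.5 CPM, was the highest library. The level over both mutants was 92.7% of WT (95% interval 81.3 to 105.6%, edgeR adjusted p = 0.881), an interval that leaves room for no change and for a fall to 81.3%. The intervals of SESN1 and SESN3 over both mutants did not overlap, and the difference between the genes was not itself tested.

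Every mutant library lay under every one of the 3 WT libraries for 5 of the 9 members (PHLDA3, DRAM1, TP53INP1, SESN1 and SESN3), where 2.29% of the 16398 genes did so. For SESN3 the gap was narrow, from 30.6 CPM in the lowest WT library to 30.3 CPM in the highest mutant library.

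DDIT4, also called REDD1, frees the TSC complex to act on RHEB and is induced by hypoxia, starvation and glucocorticoids. It lies on the plus strand (chr10:72273919-72276036). DDIT4 was at 79.2 and 68.1 CPM in WT, with 59.5 CPM in WT replicate 3. It was at 70.5, 51.3 and 112.6 CPM in G245S and at 49.9, 53.1 and 61.0 CPM in R273H. G245S held both the highest library of all and the second lowest of the mutants, so that the group spanned the WT range.

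The coefficient of variation of DDIT4 in G245S was 40.1%, where counting alone gives 3.86%, and was the largest of any member in any group. In G245S the log2 fold change over WT was 0.09 (95% interval -0.38 to 0.56, edgeR adjusted p = 0.97), and without G245S replicate 3 it was -0.26 (adjusted p = 0.899). In R273H it was -0.43 (SE 0.10, edgeR unadjusted p = 0.000869, adjusted p = 0.24), with all 3 R273H libraries under WT replicates 1 and 2 and 1 of them above WT replicate 3. Without a filter on low counts this fall was called (edgeR adjusted p = 0.013). In 1 fit of all 3 groups, which takes in the scattered G245S libraries, its SE was 0.21 (edgeR adjusted p = 0.868). R273H over G245S was -0.52 (95% interval -0.93 to -0.11, adjusted p = 0.982), and -0.17 without G245S replicate 3.

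The other hypoxia-inducible genes of G245S replicate 3 were looked at after the DDIT4 values were known, with a list of 12 (VEGFA, CA9, BNIP3, PDK1, ANKRD37, EGLN3, ADM, PFKFB4, SLC2A1, KDM3A, P4HA1 and MXI1). In that library DDIT4 was 0.62 above the WT mean on the log2 scale, the median of the 12 was 0.34 above it, 11 of the 12 lay above the WT mean and 6 of the 12 were at their highest of all 9 libraries. In G245S replicates 1 and 2 the median of the 12 was -0.10 and -0.16 beside DDIT4 at -0.06 and -0.52. In R273H the medians were -0.09, -0.07 and -0.19 beside DDIT4 at -0.56, -0.47 and -0.27. In WT replicate 3, in contrast, 10 of the 12 lay above the WT mean, 4 were at their highest and the median was 0.10, beside DDIT4 at -0.30. DDIT4 and most of the 12 were thus high together in 1 library and not in another, and what links them was not tested. For no library was the share of all genes above the WT mean computed, nor the share at their highest of the 9. In WT replicate 1 itself 8 of the 12 lay above the WT mean. CA9 was near the floor of 3 counts in G245S replicate 3 (0.368 CPM) and in WT replicate 3 (2.1 CPM).

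**Figure D3:**
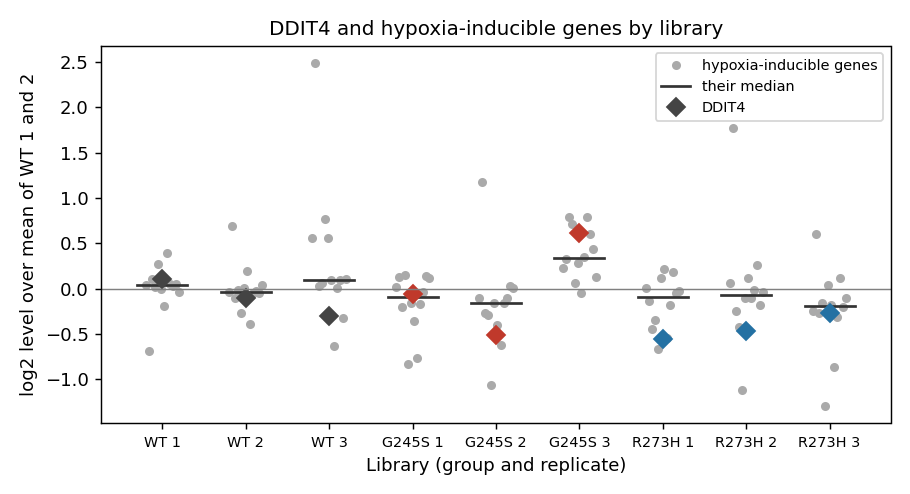
Log2 level of DDIT4 (diamonds, grey for WT, red for G245S and blue for R273H) and of 12 hypoxia-inducible genes (grey points, with their median as a line) in each of the 9 libraries, over the mean of WT replicates 1 and 2. In G245S replicate 3 DDIT4 is at 0.62 and the median of the 12 genes at 0.34; in the other mutant libraries both are under 0.

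TSC2, or tuberin, is the GTPase-activating subunit of the TSC complex that switches RHEB off. It lies on the plus strand (chr16:2047967-2089491), and PKD1 overlaps its end on the opposite strand. Its counts were not whole in 9 of 9 libraries, so some of its reads were shared ones counted in part. TSC2 was at 47.72 and 52.97 CPM in WT, with 61.6 CPM in WT replicate 3. It was at 58.6, 56.0 and 61.2 CPM in G245S and at 55.0, 49.1 and 49.9 CPM in R273H. G245S lay above WT replicates 1 and 2 and under WT replicate 3, and all 3 R273H libraries lay under all 3 of G245S. The share of all genes with such a split between the mutants was not computed, so it is a description only.

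None of these TSC2 differences passed the test. G245S over WT was 0.23 on the log2 scale (95% interval 0.03 to 0.43, edgeR adjusted p = 0.70), R273H over WT was 0.03 (-0.17 to 0.24) and R273H over G245S was -0.20 (-0.36 to -0.03, edgeR unadjusted p = 0.026, adjusted p = 0.994). The sign of the R273H change turned when WT replicate 3 entered the fit (-0.03).

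PRKAB1, the β1 regulatory subunit through which AMPK binds glycogen and assembles, lies on the plus strand (chr12:119667864-119681624). It was at 42.5 and 38.0 CPM in WT, 35.3, 34.5 and 30.3 CPM in G245S and 35.2, 36.2 and 34.9 CPM in R273H. The 6 mutant libraries were under WT replicates 1 and 2, but WT replicate 3 was at 34.3 CPM, within the mutant range. The level over both mutants was 85.4% of WT (95% interval 75.3 to 96.9%, edgeR unadjusted p = 0.0177, adjusted p = 0.596).

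The contact and the structural mutant were compared directly to ask whether the brakes differ between them. No member passed the test (percent of all 15614 genes called: 0%), no gene of the table did so by edgeR, and DESeq2 called 1 gene, which was no member. Other edgeR fits did call genes: 26 lower and 33 higher with the replicate number as a block, and 43 lower and 82 higher without a filter on low counts, DDIT4 among the lower in both (adjusted p = 0.0203 and 1.2e-05). At an unadjusted p under 0.05, 384 genes were lower and 357 higher in R273H, DDIT4 and TSC2 among the lower. The interval for PHLDA3, R273H over G245S, was 86.1 to 141% of the G245S level, for SESN1 it was 89.0 to 126% and for SESN2 92.2 to 118%. For DRAM1 it was 61.5 to 156%, so that at these counts a sizeable difference could not be seen.

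The closest relatives of the members did not pass the test in any comparison. PHLDA1 was at 4.35 and 6.65 CPM in WT, 3.35, 3.85 and 4.05 CPM in G245S and 4.94, 5.17 and 4.85 CPM in R273H, a log2 fold change of -0.34 over both mutants (SE 0.19, edgeR adjusted p = 0.818), with 18.2 CPM in WT replicate 3. PHLDA2, like PHLDA3 little more than a pleckstrin homology domain, had a log2 fold change of 0.29 (SE 0.12, edgeR unadjusted p = 0.0326, adjusted p = 0.655). DRAM2 had 0.02, TP53INP2 0.06, TSC1, the partner of TSC2, 0.15, PRKAB2 -0.03 and DDIT4L -0.17. Their 7 values had a median of 0.02, where the 9 members had -0.23.

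Around these genes, 110 others of the same pathways were listed by role, from PI3K and AKT through the TSC, mTOR, GATOR and RAG complexes and AMPK to the autophagy machinery, and 106 of them were tested over both mutants. None of the 106 was called by edgeR in any of the 4 comparisons, nor by DESeq2. At an unadjusted p under 0.05 over both mutants, 3 were lower and 4 higher. That share is near the 6.9% of all 16398 genes under the same level in either direction, so the genes named next are descriptions only. Their median log2 fold change was -0.000934, beside -0.00199 for all genes.

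The 7 genes of that list with an unadjusted p under 0.05 came from 5 of its 9 roles. PIK3R2, the p85β regulatory subunit of PI3K upstream of AKT, was at 17.7 and 18.3 CPM in WT, 11.4, 12.6 and 13.2 CPM in G245S and 13.5, 11.8 and 13.5 CPM in R273H, with 18.2 CPM in WT replicate 3. Its mutant and WT libraries did not overlap, and its log2 fold change was -0.51 (SE 0.11, edgeR unadjusted p = 0.000269, adjusted p = 0.0914). It passed the threshold only in the fit without a filter on low counts (adjusted p = 0.0354).

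FLCN, which activates the RAG GTPases RRAGC and RRAGD, had a log2 fold change of 0.35 (SE 0.12), ATG14, the autophagy subunit of the VPS34 lipid kinase complex, 0.36 (SE 0.16), and MAP1LC3B, the LC3 protein that coats autophagosomes, 0.19 (SE 0.09). ATG10, an enzyme of the ATG12 conjugation, had -0.41 (SE 0.15), TFE3, a transcription factor of lysosomal genes, -0.31 (SE 0.10), and the autophagy receptor CALCOCO2 0.21 (SE 0.09). The edgeR adjusted p of these 6 lay between 0.442 and 0.711. The autophagy genes among them thus had values on both sides of 0.

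**Figure D4:**
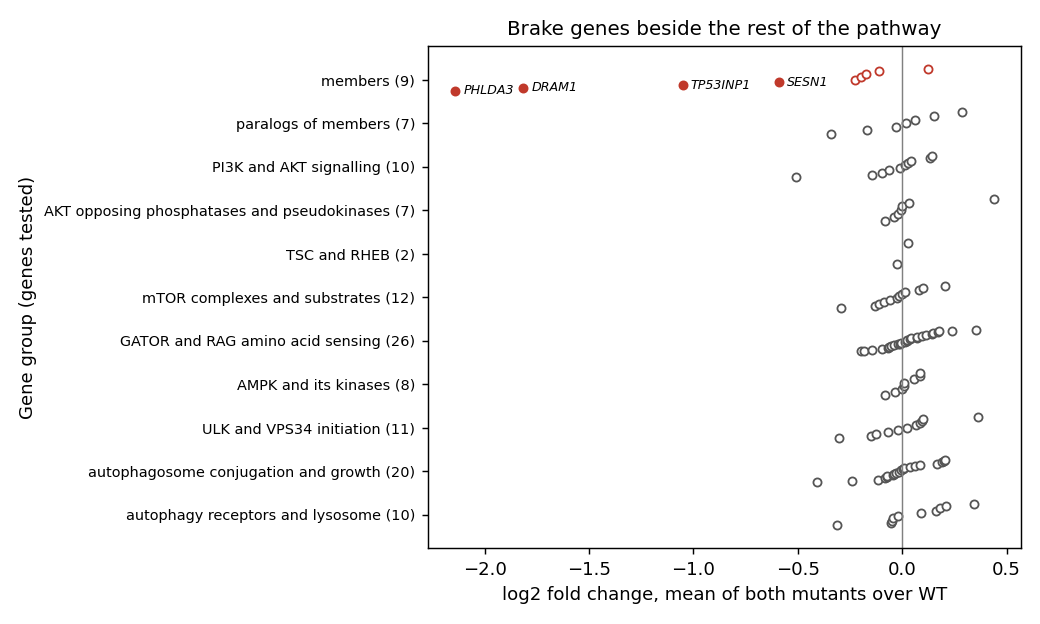
Log2 fold change of both mutants over WT for the 9 members (red), their 7 relatives and the 106 other pathway genes tested, each row a group by role with the number of genes tested. Filled points passed an adjusted p of 0.05, and the 4 that did are all members (PHLDA3, DRAM1, TP53INP1 and SESN1).

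The genes whose levels ran most like those of PHLDA3 and DRAM1 were found by Pearson's r of the log2 level over the 8 libraries, among genes with a mean of at least 5 CPM. As PHLDA3 and DRAM1 were each higher in both WT libraries than in every mutant library, these r values are descriptions of that split. For PHLDA3 the 5 highest of 11624 genes were BBC3 (r = 0.985), CYFIP2 (0.968), MDM2 (0.967), SESN1 (0.962) and AEN (0.960). BBC3, the BH3-only protein PUMA, had a mean of 38.1 CPM in WT, 23.7 CPM in G245S and 24.8 CPM in R273H, and MDM2, the ubiquitin ligase of p53, had 81.6, 46.0 and 43.6 CPM. For DRAM1 the 5 highest were AASDHPPT (r = 0.977), BAX (0.976), PIMREG (0.970), SAC3D1 (0.970) and TYMS (0.968), with BAX, the pore-forming apoptosis protein, at 92.0, 64.9 and 66.5 CPM.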

How the data were processed

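Poly(A) or total RNA selection is not given in the sources used here: the labels state total RNA, reverse transcription, second-strand synthesis and tagmentation. Per the study's methods and processing notes, the authors filtered reads with fastp 0.24.0, aligned them to GRCh38 with STAR 2.7.11, sorted them with SAMtools 1.22.1, collapsed reads that shared a molecular identifier (UMICollapse) and counted exons and 3′ UTRs with featureCounts (Subread 2.1.1), strand-specifically and with multi-mapping reads shared. The deposited values are expected counts per gene, not normalized, and a shared read adds a part of a count. The CPM columns that the authors deposited beside them were not used here, and all 9 count columns were matched to samples.

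Counts were rounded to whole numbers. A rule on depth was applied only to the WT library with the lowest total. That library was to be left out if under 0.5 times the median total of the others (4096044 counts), which removed WT replicate 3. The authors also left out a WT replicate, for low reads and poor quality of the sample. Genes were filtered with filterByExpr, scaled by TMM and tested by quasi-likelihood in edgeR 4.0.16 (R 4.3.3, limma 3.58.1), taking adjusted p (Benjamini-Hochberg, over every gene tested) under 0.05 as called. Both mutants against WT is a contrast of 1 fit of all groups. CPM values printed are TMM-scaled over the 9 libraries, SE is that of the log2 fold change, and intervals are 95%. Scripts were tested on simulated data. Alternatives were DESeq2 1.42.0, other scalings, filters and WT sets, and each replicate left out. Counting error and the floor of 3 counts cover counting only. Positions were checked against GENCODE v44: 91.8% of 61463 shared gene IDs have the same start or end. Plots used Python 3.11.15 and matplotlib 3.10.9.

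The members and lists were chosen with earlier results of these data known. Named genes are the 9 members, their relatives and, per pathway role, the genes called or the pair with the smallest p under 0.05 over both mutants, and the 5 genes most like PHLDA3 and DRAM1. The hypoxia list was chosen after the DDIT4 values were seen. Levels of different genes were not compared.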

Additional observations from a re-analysis of the deposited data

How the results depend on the processing

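PHLDA3 was called under every alternative in the 3 comparisons with WT. The number of members called in G245S was 3 as reported. It was 1 with all 3 WT libraries, with WT replicates 1 and 3 and with WT replicates 2 and 3. Upper-quartile scaling and library-size scaling also gave 1, and leaving out each G245S replicate gave 1 to 2. It was 4 in 1 fit of all 3 groups and 4 without a filter on low counts. A filter of 1 CPM in 2 libraries gave 3 and DESeq2 gave 2. In R273H it was 2 as reported, 1 with WT replicates 2 and 3, 5 without a filter on low counts, and 1 to 2 with each replicate left out. Over both mutants it was 4 as reported, 2 with WT replicates 1 and 3, with WT replicates 2 and 3 and with DESeq2, and 1 to 4 with each replicate left out, the 1 being without WT replicate 1. Between the mutants it was 0 as reported and 1 (DDIT4) without a filter, and 1 wider pathway gene (PIK3R2) was called over both mutants in that setting. Signs turned for values that were not called. DDIT4 in G245S ranged from -0.261 to 0.314 with each replicate left out. TSC2 in R273H was -0.0267 with all 3 WT libraries, -0.0205 with WT replicates 1 and 3, -0.113 with WT replicates 2 and 3, and -0.0401 to 0.107 with each replicate left out. Over both mutants with WT replicates 2 and 3, DDIT4 was 0.0024 and TSC2 -0.0152. For R273H over G245S, with each replicate left out, DRAM1 ranged from -0.207 to 0.302, TP53INP1 from -0.0317 to 0.331, SESN2 from -0.00359 to 0.115 and SESN3 from -0.101 to 0.00825. The cause was not tested. A fit with 1 WT library left assumes that it varies like the other group.

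The labels do not say what a replicate number marks, and the data did not settle whether it marks a pairing. In deviations from their group means, same-numbered G245S and R273H libraries correlated at 0.258, 0.372 and 0.0126. Different-numbered ones correlated at -0.329 to 0.144, and G245S replicate 3 was closer to R273H replicate 1 (0.0691) than to R273H replicate 3. The WT pairs, at -0.266 to -0.0784, cannot decide it, because 2 WT libraries taken about their own mean mirror each other. A shared day was not excluded. With the replicate block, members called were 4 in G245S, 2 in R273H, 4 over both mutants and 1 between the mutants (DDIT4, -0.492), and DDIT4 in G245S was -0.274. Over all genes, 17 lower and 3 higher were called in G245S, 9 and 1 with all 3 WT libraries, 3 and 0 with WT replicates 1 and 3, 87 and 57 without a filter, and 53 and 23 with the block. In R273H 18 lower and 4 higher were called, 4 and 0 with WT replicates 1 and 3, 13 and 0 with WT replicates 2 and 3, 63 and 30 without a filter, and 22 and 25 with the block. Over both mutants 29 lower and 4 higher were called, 14 and 0 with WT replicates 1 and 3 and 86 and 36 without a filter. Between the mutants none were called, against 43 lower and 82 higher without a filter and 26 lower and 33 higher with the block. With 2 WT libraries and 12 to 69 counts, depth limits DRAM1 most.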
